A study of Mus musculus with 4 samples.

Results

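Villus-tip enterocytes are the absorptive cells that have finished their journey from the crypt and stand where old cells leave the epithelium. They were described here in the small intestine of irradiated mice by their own transcripts, with 931 cells from mice lacking the interferon-λ receptor in the epithelium (KO) and 935 cells from wild-type mice (WT). These 1866 cells were 19.5% of the 9591 barcodes past the filters and came from 17823 deposited barcodes. Enterocytes were first taken as cells in which Apoa1, Apoa4, Fabp1, Fabp2 and Rbp2 made up at least 2% of UMIs (unique molecular identifiers, 1 per captured transcript). Cells with 2% or more of goblet cell genes, cells with ileal Fabp6 and the 989 cells highest in Duox2 and Duoxa2 were left out. The other 5599 enterocytes of both libraries were ranked together by a score, the mean log level of Ada, Nt5e, Slc28a2, Egfr and Klf4 minus that of Reg1, Reg3b, Reg3g, Plac8 and Lypd8. The villus-tip cells were thus chosen by measured levels of these genes: the 1866 with the highest scores were kept, and the next 1866 (the middle set) and the last 1867 (the lowest set) are called the other enterocytes.

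Along the villus, enterocytes change their work as they age. Textbook accounts place antimicrobial genes near the bottom, sugar and amino acid uptake in the middle, and lipoprotein assembly, purine breakdown and cell adhesion genes at the tip. Ada and Nt5e act in purine breakdown, in which Nt5e makes adenosine from AMP and Ada makes inosine from adenosine, and Slc28a2 imports purine nucleosides. Egfr is the receptor for epidermal growth factor and Klf4 a transcription factor of differentiated epithelium. Interferon-λ acts mainly on epithelial cells, through a receptor made of Ifnlr1 and Il10rb, and switches on antiviral genes by way of transcription factors that include Stat2 and Irf9.

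KO mice were VilCreIfnlr1fl/fl, in which Villin-Cre deletes the floxed receptor gene in intestinal epithelium and leaves it in other cells. WT mice were the comparison, and no age was given. All 6 mice had received 11 Gy of gamma rays with head, thorax and upper limbs under lead. Tissue was taken 96 h later by the series design and 3 days later by the extraction protocol, and the 2 statements were not reconciled. Live EPCAM+ CD45- cells were sorted and marked with 1 hashtag per mouse. The 3 mice of a genotype then shared 1 library, which means that effects of genotype and of pooling cannot be told apart anywhere below, and the p-values compare mice within 2 pools. The labels describe a fraction of crypt cells, while the enterocytes here carried villus markers.

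The KO library held 110960113 gene UMIs in 7370 barcodes and the WT library 102915321 in 10453. Of the villus-tip cells, 620 KO and 622 WT cells carried the hashtag of 1 mouse, which gave 329, 157 and 134 cells for KO1 to KO3 and 266, 96 and 260 for WT1 to WT3. Their summed depth was 1329523 to 2697759 UMIs in KO mice and 901792 to 2505026 in WT mice. Median depth per cell was 7366 to 8958.5 UMIs in KO mice and 8178 to 9217 in WT mice, and the median mitochondrial share was 14.9 to 16.7% in KO mice and 15.0 to 17.6% in WT mice. The tip cells thus overlapped between genotypes in depth and mitochondrial share. KO2 stood apart lower on the villus, where it reached a median of 41434.5 UMIs per cell in the lowest set, against 10216.5 to 20419 in the other 5 mice. No barcode sequence was shared between the libraries among tip cells, and 28 were shared among all deposited barcodes. Levels below are CPM, a gene's share of the summed UMIs on a common scale. Those of tip cells and of the other enterocytes are adjusted by TMM factors. Those of whole libraries, goblet-gated cells and cells without a hashtag are not adjusted. Means are given ± SD over 3 mice per genotype.

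The score had no gap at its limit. The lowest score inside was 1.918 and the highest outside 1.916, the median was 2.40 in tip cells, 1.40 in the middle set and −0.78 in the lowest set, and 367 cells lay within 0.1 of the limit. The 100 cells just inside held 115 Ada UMIs per 10000 and the 100 just outside 119, so cells on both sides of the limit were close, and the villus tip here is the end of a range. Tip cells made up 46.4, 36.5 and 25% of the ranked enterocytes of KO1, KO2 and KO3 and 49.7, 22.8 and 34.8% of those of WT1, WT2 and WT3. The shares overlapped between genotypes.

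Markers that played no part in the choice were used to check the name. Of 8 other villus-tip markers above 5 CPM, 7 were higher in tip cells than in the other enterocytes of every mouse, as were 1644 of all 3133 genes at 50 CPM or more. Apob, the core protein of chylomicrons, averaged 8285 CPM in tip cells against 3447 CPM in the other enterocytes, and Cdh1, the adhesion protein E-cadherin, 959 against 379 CPM. The exception was Apoc3, which was higher in 3 of 6 mice. Of 7 villus-bottom markers not used in the score, 6 were lower at the tip in every mouse, against 856 of those 3133 genes, among them the chemokine Ccl25 with 19.4 against 248.7 CPM. Mid-villus markers split: 5 of 8 were lower at the tip in every mouse, while the peptide carrier Slc15a1 and the amino acid carrier Slc7a9 were higher in every mouse. Without TMM scaling the tip markers higher in every mouse were 6 of 8, the bottom markers stayed at 6 of 7 lower, and no mid-villus marker was higher in every mouse.

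**Figure D1:**
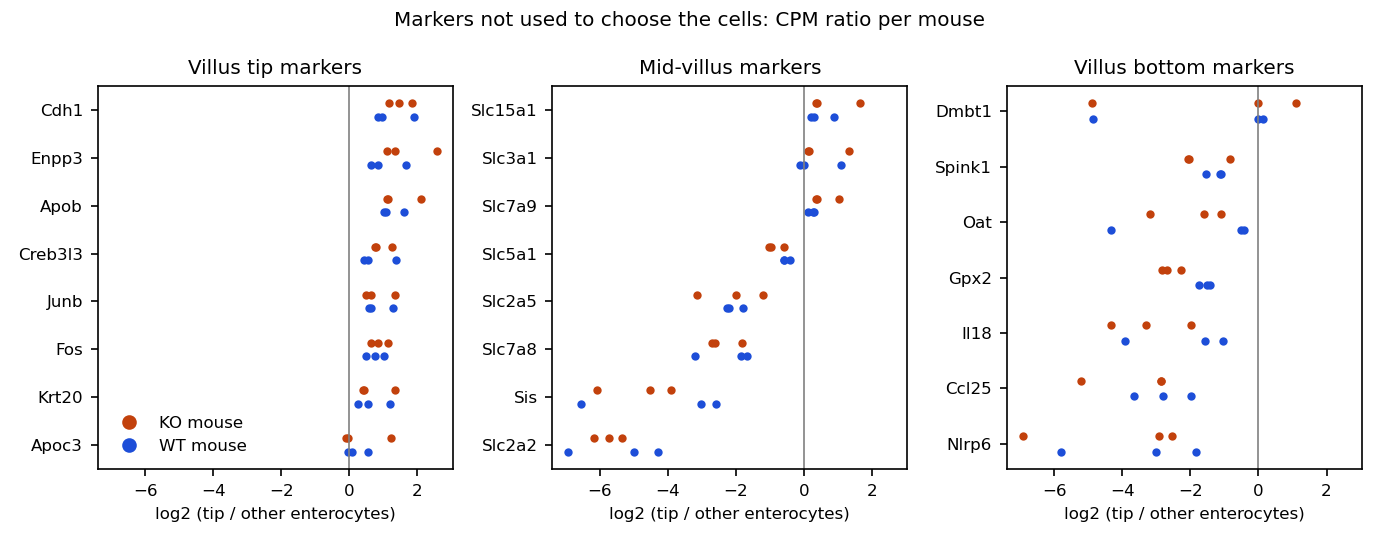
Log2 ratio of the CPM in villus-tip cells over the other enterocytes of the same mouse, 1 point per mouse, for markers of villus tip, mid villus and villus bottom that were not used to choose the cells (1 CPM added). Tip markers lie to the right of 0 in all mice except Apoc3, which was higher in 3 of 6, and bottom markers to the left of 0 except Dmbt1, which was higher at the tip in 2 of 6 mice.

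The score sets part of the distance between tip and other enterocytes, so the next values are a description with no test. Among 3133 genes at 50 CPM or more, 1644 were higher and 856 lower at the tip in all 6 mice. The scaling moved this split: the median log2 ratio of these genes was 0.38 with TMM and 0.09 without it, where 1135 genes were higher and 1094 lower. By at least 2-fold in every mouse, 172 were higher and 266 lower.

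Of the genes that stood highest at the tip, after Nt5e, which chose the cells (mean log2 ratio 4.20), came St3gal1, a sialyltransferase of glycoproteins, at 125 CPM in tip cells against 11.8 CPM in the other enterocytes (log2 ratio 3.42). Cldn4, a tight junction claudin, stood at 312 against 35.1 CPM (3.13), and Cemip, which degrades hyaluronan, at 473 against 66.6 CPM (2.97). The lowest log2 ratio of any mouse among St3gal1, Cldn4 and Cemip was 2.185, for Cemip. Others of the highest genes were 1600022D10Rik (3.14), the chloride channel protein Clic4 (2.75), the actin-binding Marcksl1 (2.64), Gm47507 (2.63), the phosphatidate phosphatase Lpin2 (2.59), Plekhg3 (2.56), the stress phosphatase subunit Ppp1r15a (2.48), the ubiquitin ligase March3 (2.46) and the cytoskeletal linker Gas2l3 (2.45). Egfr, also used in the score, stood at 3.10.

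Of the genes that stood lowest at the tip, Slc2a2, the basolateral glucose carrier GLUT2, stood at 1.69 CPM in tip cells against 123 CPM in the other enterocytes (−5.57), and the disaccharidase Sis at 17.3 against 525 CPM (−4.44). The lactate carrier Slc5a12 (−4.78), the chloride exchanger Slc26a3 (−4.48), the peptide Leap2 (−4.42), the glutathione transferase Gstp1 (−4.30), the cGMP-dependent kinase Prkg2 (−4.18) and the mannose-binding lectin Mbl2 (−4.09) followed. Reg3b (−4.19) and Fabp1 (−4.12) were part of the rule. By list, 9 of 10 sugar genes and all 18 nuclear genes of the respiratory chain were lower at the tip in every mouse. Without TMM scaling the counts were 10 of 10 and 18 of 18.

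Ifnlr1 itself (ENSMUSG00000062157, mm10 chr4:135686287-135708181) stood in tip cells at 41.0, 46.2 and 43.6 CPM in KO1, KO2 and KO3 and at 49.6, 49.9 and 46.1 CPM in WT1, WT2 and WT3. The genotypes overlapped by KO2 and WT3, and the log2 fold change was −0.13 (SE 0.16, edgeR adjusted p = 0.71). The deleted part of the gene is not named and counts come from the 3′ end of transcripts, so these values do not check the deletion. The partner chain Il10rb stood at 47.2, 59.4 and 59.8 CPM in KO mice and 48.6, 28.0 and 55.8 CPM in WT mice. Of the 9 interferon receptor chains and kinases tested, Jak2, a kinase used by the interferon-γ receptor, was lower in KO at 327 ± 30.4 against 501 ± 40.0 CPM (log2 fold change −0.59, SE 0.12, edgeR adjusted p = 0.00804), a call lost without KO1. The other 8 were not called.

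The series title places type III interferons in epithelial death and repair after injury, and the comparison asked what loss of the receptor changed inside these cells. UMIs were summed per mouse over its tip cells, and genotype was tested with edgeR's quasi-likelihood test, with a threshold of 0.05 after Benjamini-Hochberg adjustment over all genes. Of 6826 genes tested outside the rule, 491 (7.19%) were called: 300 (4.39%) were lower in KO and 191 (2.8%) higher. At an unadjusted p under 0.05 there were 1451 genes. The KO and WT mice did not overlap in 477 of the 491. Among all genes tested, all KO mice were below all WT mice in 998 (14.6%) and above them in 767 (11.2%). The median log2 fold change over all genes was 0.01. Among the called genes, 136 were lower and 78 higher by at least 2-fold. Leaving out 1 mouse gave 203 to 541 calls, with 203 without KO1, 246 without WT3 and 305 without KO2, and 165 of the 491 were called in all 6 such fits. With a mitochondrial limit of 15% there were 213.

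**Figure D2:**
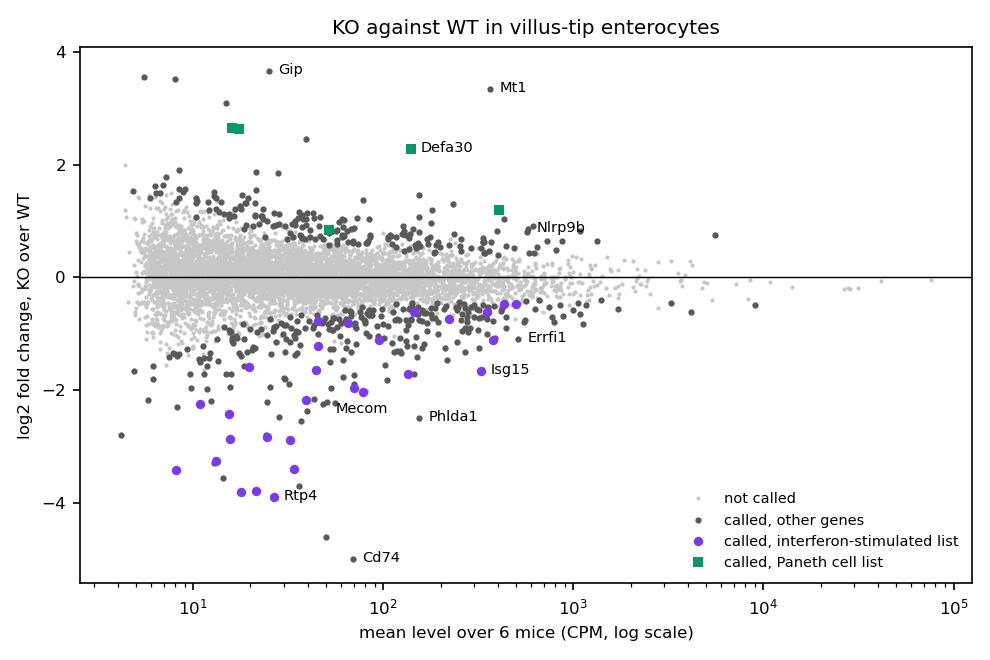
Log2 fold change of KO over WT in villus-tip enterocytes (edgeR) against the mean CPM over 6 mice on a log scale, 1 point per gene. Called genes of the interferon-stimulated list lie below 0 and called genes of the Paneth cell list above 0, among 300 lower and 191 higher genes in all.

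The next genes were named from those with no overlap between the genotypes and a mean of at least 20 CPM. Among such genes, the 12 lower ones with the smallest p were 7 interferon-induced genes and 5 others. The CPM limit left out Oas1a, an interferon-induced gene given below with a smaller p than Ifit1. The split of 7 to 5 thus depends on that limit. Rtp4, an interferon-induced chaperone of receptors with antiviral activity (ENSMUSG00000033355, chr16:23520291-23614222), stood at 3.48, 2.20 and 4.04 CPM in KO mice and 42.8, 45.1 and 62.6 CPM in WT mice. Its log2 fold change was −3.90 (SE 0.29, edgeR adjusted p = 8.11e-06). Every KO mouse lay far under every WT mouse. Ifit1, which binds viral RNA with foreign caps (ENSMUSG00000034459, chr19:34640871-34650009), stood at 8.12, 10.3 and 4.04 CPM in KO mice and 53.3, 51.1 and 67.9 CPM in WT mice (−2.88, SE 0.26, edgeR adjusted p = 3.69e-05). Usp18, which takes Isg15 off proteins and dampens interferon receptors, stood at 2.71, 4.399 and 1.62 CPM in KO mice and 29.8, 26.8 and 63.1 CPM in WT mice (−3.79, SE 0.43). WT3 was the highest mouse for all 3 genes. Herc6, the main Isg15 ligase of the mouse, averaged 5.94 ± 2.79 CPM in KO and 42.9 ± 5.59 CPM in WT mice (−2.83), and Oasl2, an oligoadenylate synthetase-like protein, 61.9 ± 3.94 and 208 ± 44.6 CPM (−1.72). Rsad2, the antiviral enzyme viperin, averaged 5.99 ± 1.25 and 61.9 ± 29.2 CPM (−3.41), with WT2 at 29.2 CPM well under the other 2 WT mice. Ifi27l2b, of the interferon-inducible Ifi27 family, stood at 236 ± 27.2 and 521 ± 57.7 CPM (−1.11).

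The other 5 lower genes are not known chiefly as interferon targets. Phlda1, a pleckstrin-homology protein induced by growth factors (ENSMUSG00000020205, chr10:111506286-111508645), stood at 34.4, 45.5 and 60.6 CPM in KO mice and 274, 227 and 281 CPM in WT mice. Its log2 fold change was −2.50 (SE 0.18, edgeR adjusted p = 8.11e-06), the smallest p of all lower genes. Errfi1, the feedback inhibitor of EGFR also called MIG6 (ENSMUSG00000028967, chr4:150853919-150868892), stood at 319, 288 and 362 CPM in KO mice and 721, 682 and 700.3 CPM in WT mice (−1.09, SE 0.11, edgeR adjusted p = 1.34e-04). In both genes the 3 mice of a genotype lay close together and far from the other genotype. Mecom, a zinc finger transcription factor, averaged 18.0 ± 4.25 CPM in KO and 82.8 ± 22.2 CPM in WT mice (−2.21, SE 0.23), and Cdyl, a chromodomain co-repressor, 16.7 ± 0.398 and 79.6 ± 20.7 CPM (−2.25, SE 0.22). Atp2b1, a calcium pump of the plasma membrane, averaged 149.8 ± 10.9 and 336 ± 49.0 CPM (−1.15, SE 0.13).

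The 12 higher genes were led by Mt1, a metal-binding metallothionein (ENSMUSG00000031765, chr8:94179082-94180327), at 552, 752 and 685 CPM in KO mice and 101, 51.1 and 42.7 CPM in WT mice. Its log2 fold change was 3.34 (SE 0.25, edgeR adjusted p = 8.11e-06). In the 5 other metallothionein and zinc transport genes tested, none was called. Naaladl1, a peptidase, stood at 639, 629 and 463 CPM in KO mice and 270, 296 and 296 CPM in WT mice (1.04, SE 0.13, edgeR adjusted p = 4.94e-04). Slc34a2, the phosphate carrier of the brush border, averaged 800.2 ± 87.6 CPM in KO and 432 ± 61.3 CPM in WT mice (0.91, SE 0.13), and Slc17a5, the lysosomal exporter of sialic acid, 222 ± 57.7 and 86.1 ± 22.7 CPM (1.46, SE 0.20). Nlrp9b, an inflammasome sensor of mouse enterocytes, stood at 759.7, 697 and 746 CPM in KO mice and 462, 446 and 337 CPM in WT mice (0.85, SE 0.13, edgeR adjusted p = 0.00173). For each of these 5 genes every KO mouse was above every WT mouse, which the rule that named them required. Zc3h13, a subunit of the RNA adenosine methylation complex (1.31), the histone gene Hist1h2ac (1.85) and Gm20275 (0.91) were also higher in KO.

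**Figure D3:**
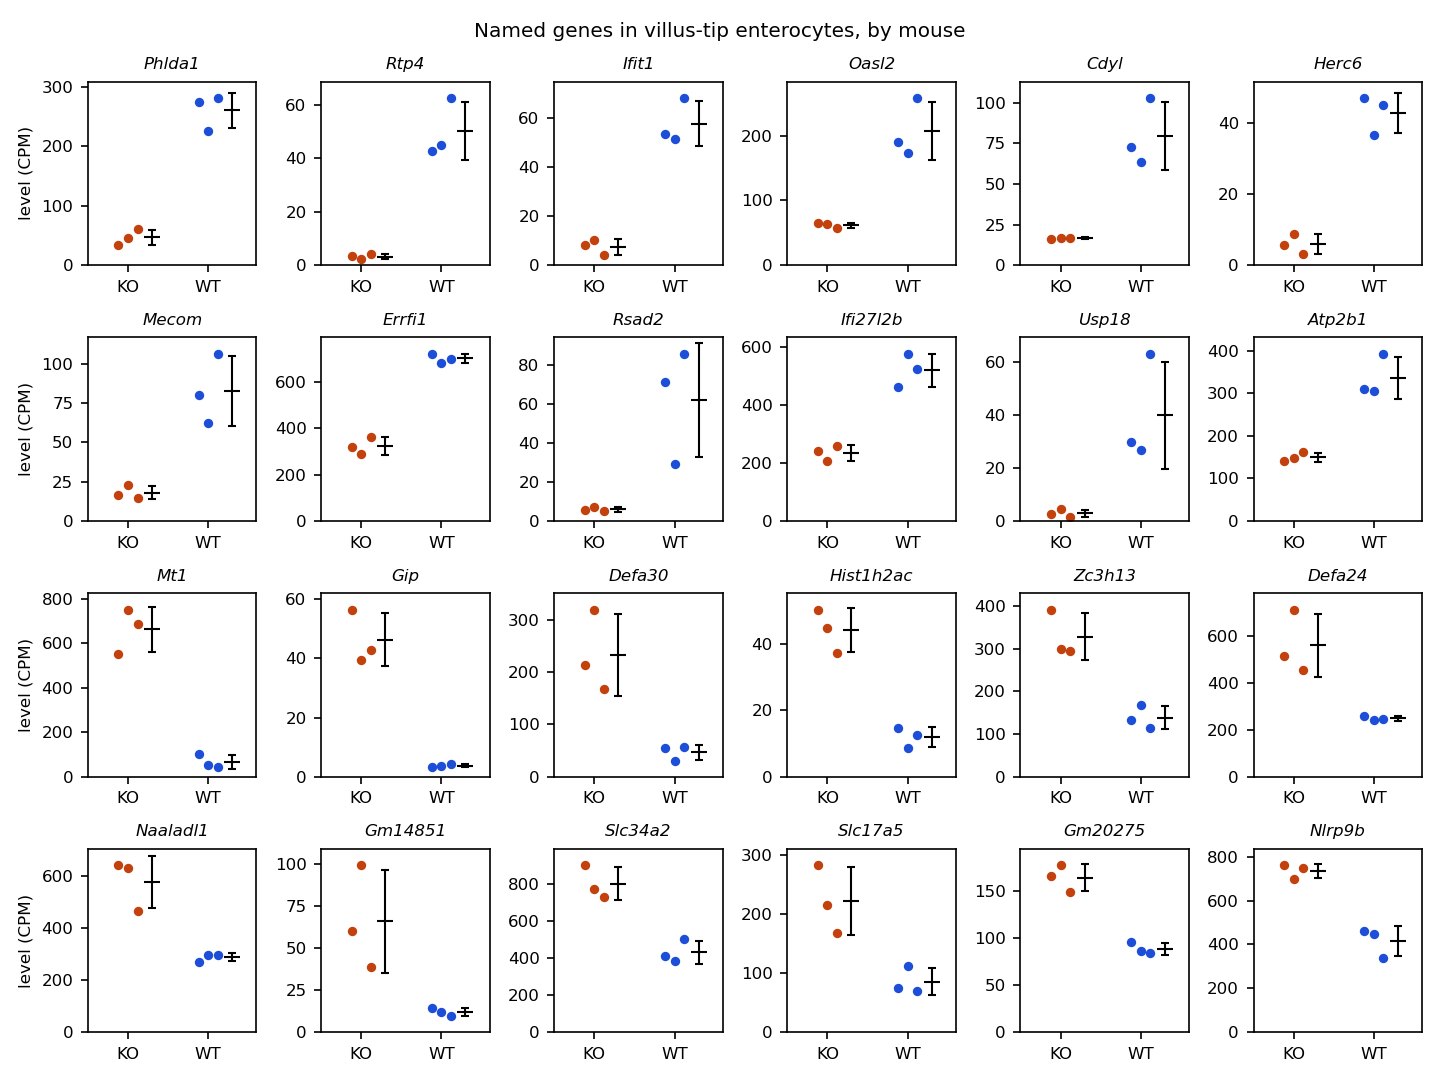
CPM in villus-tip enterocytes of the 12 lower and 12 higher genes with the smallest p, no overlap and a mean of at least 20 CPM. Each point is 1 mouse, with the mean ± SD beside the points (KO, then WT, n = 3 mice each). No gene has a KO mouse within the WT range, by the rule that named the genes.

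Of the last 4 higher genes, 3 are known products of other epithelial cells: the hormone Gip of enteroendocrine K cells and the Paneth cell defensins Defa30 and Defa24. The fourth was Gm14851 (2.46), which lies between Defa21 and Defa30 on chromosome 8. Gip stood in tip cells at 56.4, 39.6 and 42.8 CPM in KO mice and 3.14, 3.65 and 4.37 CPM in WT mice (3.65, SE 0.28, edgeR adjusted p = 8.11e-06). Over all barcodes of a library it stood at 271 CPM in KO and 59.5 CPM in WT. Its mice did not overlap over all their cells, at 278 to 712 CPM in KO and 4.66 to 227 CPM in WT. Defa30 stood at 213, 319 and 167 CPM in KO tip cells and 53.8, 29.2 and 56.3 CPM in WT tip cells (2.28, SE 0.24), against 4216 CPM over the KO library and 2223 CPM over the WT library. Its mice overlapped over all their cells, at 6088, 2669 and 11842 CPM in KO and 5783, 4274 and 1362 CPM in WT. Defa24 averaged 561 ± 134 and 248 ± 9.57 CPM in tip cells (1.20, SE 0.15), against 10309 and 6849.8 CPM over the KO and WT libraries. Its mice overlapped over all their cells too, with KO2 at 6263 CPM and WT1 at 15551 CPM. KO2 was the highest mouse at the tip for both defensins and the lowest KO mouse over all cells. Thinned to 3000 UMIs, 41.2% of KO and 12.4% of WT tip cells held a Defa30 UMI, and so did 34.2% of KO and 11.0% of WT cells that passed the goblet gate, whose median depth was 25780.5 UMIs in KO and 19507 in WT against 7954.5 and 8411.5 in tip cells. For Gip the shares were 8.96% of KO and 0.66% of WT tip cells, and 6.98% and 1.14% of goblet-gated cells. The goblet-gated cells are no set free of these transcripts. Their Defa24 level was 9908 to 15325 CPM in KO and 6644 to 16485 CPM in WT mice, and 10 cells held 91.3% or more of its UMIs in every mouse. In goblet-gated cells of WT1, Defa30 stood at 458 CPM with 94.97% of its UMIs in 10 cells, and all 230 Gip UMIs were in 10 or fewer cells. Over all goblet-gated cells Defa30 stood at 130 CPM in KO and 191 CPM in WT, the opposite order to the shares of cells, so no order is read from those shares. The part of RNA from other cells in the difference between tip cells was not tested. Mt1 differed outside tip cells too: it stood at 1264 CPM over the KO library and 268 CPM over the WT library, and was seen in 69.4% of KO and 9.24% of WT tip cells and in 79.8% of KO and 20.6% of WT goblet-gated cells after thinning.

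Of the Paneth cell list, 5 of 8 tested genes were higher in KO tip cells (Defa21, Defa22, Defa24, Defa30 and Lyz1), against 2.8% higher among all genes. The median log2 fold change of the 8 was 1.02 in tip cells, 1.43 in the middle set and −0.94 in the lowest set. Over all barcodes, Lyz1 stood at 1156 CPM in the KO and 1053 CPM in the WT library, Defa22 at 299 and 259 CPM, and Defa21 at 493 and 316 CPM. Each of these genes overlapped between KO and WT mice over all their cells. The summed level of the whole list was 823 to 1324 CPM in KO and 395 to 443 CPM in WT mice. Alpha-defensins are near-identical copies among which reads can be split, so single members are uncertain. The goblet marker Spink4 was higher at 149 ± 8.23 against 109 ± 9.98 CPM, and of 2 other goblet genes tested none was called. The enteroendocrine gene Cck was lower, at 4.25, 6.599 and 7.27 CPM in KO and 17.2, 9.74 and 19.9 CPM in WT mice. Over all barcodes, Spink4 stood at 2485 CPM in the KO and 1747 CPM in the WT library, and Cck at 99.4 and 209 CPM. For both genes the mice overlapped over all their cells. There Cck stood at 573, 29.7 and 83.5 CPM in KO and 37.4, 82.7 and 684 CPM in WT mice. The part of RNA from other cells in the tip values of Spink4 and Cck was not tested. The Cck call was lost without KO1, WT1 or WT3, and that of Spink4 in 5 of the 6 fits without 1 mouse. Markers of blood and connective tissue were close to absent: the summed T cell list stood at 0 CPM in each KO mouse and at most 1.22 CPM in WT mice, the myeloid list at most 4.25 in KO and 7.28 CPM in WT, and haemoglobin genes at 0 in all 6 mice.

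The interferon-stimulated list, made of antiviral genes induced by interferons, had more called members in tip cells than any other list examined. Of 41 tested members, 28 were lower in KO, none was higher and 13 were not called, against 4.39% lower among all genes. Their median log2 fold change was −1.11, beside 0.01 for all genes. In 33 of the 41 every KO mouse lay under every WT mouse, against 14.6% of all genes. Before testing, 9 of the 50 members in the files were too low to pass the count filter. The list and its fall in KO were known from earlier work on these cells and are not independent evidence.

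The summed list stood at 3173, 3451 and 3108 CPM in KO1, KO2 and KO3 and at 5278, 5137 and 6595 CPM in WT1, WT2 and WT3. The KO to WT ratio of the means was 0.572 (2-sided exact permutation test, p = 0.1, which is the lowest value possible with 3 mice a group), and the ratio was 0.529 to 0.624 under the alternatives tried. The 3 KO mice lay below the 3 WT mice, and WT3 was the highest. Some abundant members were not called: Samd9l stood at 268 ± 22.8 CPM in KO and 272 ± 16.0 CPM in WT mice, and Parp14 at 299 ± 40.1 CPM in KO and 319 ± 72.0 CPM in WT mice.

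By role, lower genes were found among sensors, effectors, the Isg15 system and the transcription factors. Isg15, a ubiquitin-like tag, stood at 141, 188 and 139 CPM in KO mice and 414, 369 and 711 CPM in WT mice (log2 fold change −1.66, SE 0.21, edgeR adjusted p = 4.90e-04). Oas1a, which makes the activator of RNase L, stood at 2.32, 2.20 and 2.42 CPM in KO mice and 27.7, 29.2 and 43.2 CPM in WT mice (−3.81, SE 0.33, edgeR adjusted p = 3.59e-05). In both genes no KO mouse came near a WT mouse, and WT3 was highest. Other effectors called lower were Oas2 (−3.41), Oas1g (−3.25), Trim30a (−2.86), Xaf1 (−2.42), Cmpk2 (−2.24), Rnf213 (−2.02) and Oas3 (−1.60).

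Among sensors of cytosolic RNA, Ifih1, the sensor MDA5, stood at 163 ± 9.11 CPM in KO and 279.9 ± 56.8 CPM in WT mice (−0.74), Ddx58, the sensor RIG-I, at 33.1 ± 5.91 and 57.3 ± 14.6 CPM (−0.78), and Ddx60, a helicase of the same response, at 28.5 ± 7.63 and 111 ± 38.4 CPM (−1.96). All 3 were called lower by edgeR, Ddx58 in no fit without KO1, KO2, KO3, WT1 or WT3. Of the factors that carry the signal, Irf9 averaged 21.6 ± 5.14 CPM in KO and 67.1 ± 8.11 CPM in WT mice (−1.65), Stat2 47.4 ± 3.27 and 83.8 ± 13.1 CPM (−0.81), and Irf7, a factor that amplifies interferon production, 274 ± 42.2 and 426 ± 51.8 CPM (−0.61, lost without KO1, KO3 or WT3).

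Promoter sequence was set beside these changes. Interferon-stimulated response elements bind a complex that holds Stat2 and Irf9 and are built from paired GAAA. The motif GAAANNGAAA, searched on both strands in RefSeq promoters of build GRCm38.p6 (250 bases before to 50 after a gene's start), was found in 12 of 23 matched members that were lower in KO. It was found in 3.99% of the 27025 genes of the promoter table. Of the 13 members that were tested and not called, 9 had a matched promoter and 2 of these held the motif. Of the 272 lower genes outside the list, 216 were matched and 11 (5.09%) held it. Among all genes tested in tip cells the share was 4.09%. The 9 matched members that were not called are too few for a comparison with the called ones. No link between the motif and the fall in KO is drawn. A match is a description of letters and says nothing of binding. Stretches of 150 bases up to the start site of 4 members are shown, Oas1a and Rsad2 for their large falls and Isg15 and Ifit1 as the best known of the list, with each match or its reverse complement in capitals:
Isg15 (chr4:156200819-156200968, minus strand): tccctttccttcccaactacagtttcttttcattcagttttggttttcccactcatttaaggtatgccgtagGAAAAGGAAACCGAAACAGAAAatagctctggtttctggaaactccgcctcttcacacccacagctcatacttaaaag
Ifit1 (chr19:34640739-34640888, plus strand): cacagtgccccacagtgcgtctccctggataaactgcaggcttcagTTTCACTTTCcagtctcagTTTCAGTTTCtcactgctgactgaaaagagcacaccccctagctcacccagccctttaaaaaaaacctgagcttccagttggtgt
Oas1a (chr5:120907526-120907675, minus strand): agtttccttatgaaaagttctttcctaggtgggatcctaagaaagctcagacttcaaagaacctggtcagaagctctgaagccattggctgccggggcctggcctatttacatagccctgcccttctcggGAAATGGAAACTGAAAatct
Rsad2 (chr12:26456453-26456602, minus strand): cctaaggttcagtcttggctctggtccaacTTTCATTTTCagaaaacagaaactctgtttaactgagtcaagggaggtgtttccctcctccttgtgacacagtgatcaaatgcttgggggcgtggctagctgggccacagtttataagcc
The matches lay 78 to 66 bases before the start of Isg15 (3 matches), 104 and 85 bases before that of Ifit1, 20 and 14 before that of Oas1a and 120 before that of Rsad2. Oas1a and Oas1g, like Ifit1 and Ifit1bl1, are close copies that counting may not tell apart.

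Among single cells, the list made up a median of 28.7, 30.3 and 29.1 of 10000 UMIs per tip cell in KO1, KO2 and KO3 and 37.1, 44.0 and 48.6 in WT1, WT2 and WT3, and no tip cell of these mice was without a UMI of the list. Cells with 50 or more were 5.78, 9.55 and 5.22% in KO mice and 29.7, 35.4 and 47.7% in WT mice. Cells of every mouse overlapped, and the genotypes differed most in their upper ranges. Thinned to 3000 UMIs per cell, which left out 6 KO and 16 WT cells, 27.4% of KO and 58.4% of WT tip cells held an Isg15 UMI, against 5.12% of KO and 20.1% of WT goblet-gated cells. Without thinning the shares in single mice were 50.5 to 58.6% in KO and 74.1 to 89.6% in WT tip cells. For Rtp4 the thinned shares were 1.14% of KO and 12.5% of WT tip cells, against 0.70% and 5.95% of goblet-gated cells. For Ifit1 they were 1.63% of KO and 10.7% of WT tip cells, and the 10 tip cells with the most Ifit1 held 69.6, 73.8 and 51.4% of its UMIs in WT1, WT2 and WT3. For Isg15 the 10 highest tip cells held 28.0, 38.9 and 24.1% of the UMIs in these WT mice. The share in 10 cells depends on the number of UMIs, which was 102, 42 and 140 for Ifit1 and 792, 303 and 1464 for Isg15. These shares therefore do not compare the 2 genes. Rtp4, closer to Ifit1 with 82, 37 and 129 UMIs, had 26.8, 48.6 and 31.8% in its 10 highest tip cells.

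The same list was set beside enterocytes further down the villus. The median log2 fold change of the 41 members was −1.11 in tip cells, −1.21 in the middle set and −1.19 in the lowest set of the same mice. The summed list in tip cells over the other enterocytes of the same mouse was 1.25, 2.09 and 1.27 in KO mice and 1.06, 1.09 and 1.07 in WT mice. All 3 KO ratios lay above all 3 WT ratios, and KO2 was far above the other KO mice. The difference of the log2 ratios was 0.47 (exact permutation p = 0.1, the smallest possible), and 0.23 without KO2. The deep cells of KO2 in the lowest set move with this value, and their part in it was not tested. Without TMM scaling the difference was 0.46. Gene by gene the list had no common direction along the villus. Of 42 members at 5 CPM or more, 12 were higher and 9 lower at the tip in every mouse, and 5 and 11 without TMM scaling. Of the 3133 genes at 50 CPM or more, 1644 were higher and 856 lower, and 1135 and 1094 without TMM scaling. Members were thus higher at the tip less often than those genes, which were taken at another CPM limit.

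**Figure D4:**
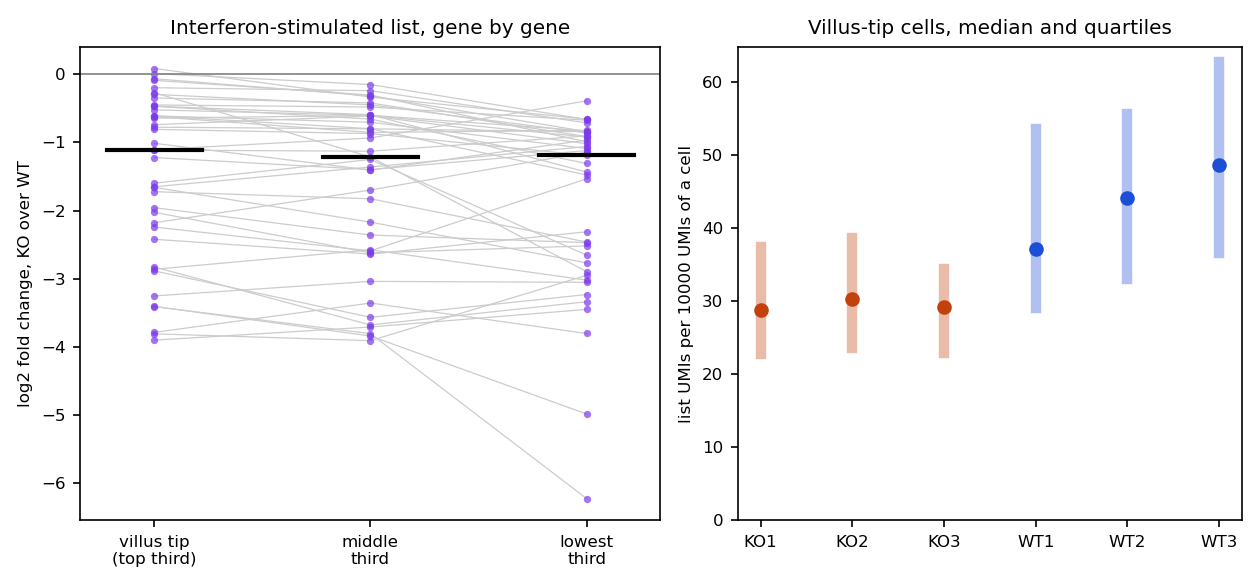
Left, log2 fold change of KO over WT for the 41 tested interferon-stimulated genes in villus-tip cells and in the middle and lowest sets, with lines joining a gene and bars at the medians (−1.11, −1.21 and −1.19). Right, UMIs of the list per 10000 UMIs of a villus-tip cell in each mouse, with the median as a point and the quartiles as a bar, where the KO medians are 28.7 to 30.3 and the WT medians 37.1 to 48.6.

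Gene by gene, no difference between the effect at the tip and in the other enterocytes was called. The interaction of genotype and zone was called in 0 of 9090 genes (0%) by edgeR, with 299 at an unadjusted p under 0.05 and a smallest adjusted p of 0.986, and DESeq2 called 1 (Ano6). The count rested on the mice with hashtag 2: without KO2 and WT2, 176 of 8997 genes were called, 94 with a higher and 82 with a lower effect at the tip, and 3 of 44 interferon-stimulated genes were among them. The 5 lower genes with the smallest p were Ano6, Tubal3, Rasal2, Areg and Leap2, and the 5 higher ones Gm26917, Ifit1bl1, Ly6d, Pdgfc and Pik3r1. Ano6, a lipid scramblase, stood at 38.0 ± 7.62 CPM in KO and 97.3 ± 6.25 CPM in WT tip cells, and at 259 ± 30.4 and 231 ± 21.7 CPM in the other enterocytes (difference of log2 fold changes −1.54, SE 0.25, edgeR adjusted p = 0.986). Ifit1bl1 stood at 62.4 ± 15.3 and 74.4 ± 19.4 CPM in KO and WT tip cells, and at 28.5 ± 2.50 and 144 ± 55.1 CPM in the other enterocytes (1.99, SE 0.42, edgeR adjusted p = 0.986). Phlda1 had a log2 fold change of −2.50 at the tip and −1.36 in the other enterocytes, and Mecom −2.21 and −1.07, differences that were not called.

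Antigen presentation genes were lower in part. Of 17 tested, 4 were lower in KO, against 4.39% of all genes, and none was higher, with a median of −0.37. In 13 of the 17 every KO mouse lay under every WT mouse, against 14.6% of all genes. Cd74, the invariant chain of MHC class II, stood at 6.19, 2.20 and 1.62 CPM in KO mice and 30.3, 185 and 188 CPM in WT mice (−5.00, SE 0.68, edgeR adjusted p = 6.35e-04). All KO mice lay under all WT mice, and WT1 lay far under the other 2 WT mice. H2-Ab1, a class II chain, stood at 10.8, 12.5 and 8.89 CPM in KO and 29.3, 57.2 and 104 CPM in WT mice (−2.54). Thinned to 3000 UMIs, Cd74 was seen in 1.30% of KO and 19.8% of WT tip cells, against 0% and 5.49% of goblet-gated cells. B2m, the light chain of class I, was lower at 782 ± 47.0 against 1198 ± 94.7 CPM (−0.59, SE 0.11), and so was the peptide transporter Tap1 (−1.71, lost without KO1 or WT3). The class I heavy chains H2-K1 (−0.16) and H2-D1 (−0.22) were not called.

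Egfr, which helped choose the cells and so is given without a test, stood at 712, 1062 and 863 CPM in KO mice and 1505, 1722 and 1697 CPM in WT mice, with no overlap. Ada stood at 13389.7, 15037 and 15999.5 CPM in KO mice and 16647, 14165 and 20559 CPM in WT mice, with overlap, and Nt5e at 2346, 2662 and 3101 CPM in KO and 2599.96, 2051 and 3675 CPM in WT mice, with overlap. Slc28a2 stood at 8349, 9362 and 8522 CPM in KO mice and 12118, 9367 and 10785 CPM in WT mice, and Klf4 at 827, 765 and 913 CPM in KO mice and 1117, 1025 and 1126 CPM in WT mice. Every KO mouse was below every WT mouse for both, with KO2 and WT2 nearly level for Slc28a2. The counts of the lists that follow stand beside 4.39% lower and 2.8% higher among all genes. Of 9 tested genes of EGFR signalling outside the rule, 2 were lower in KO, Errfi1 and Areg, with a median of −0.13. Areg, an EGFR ligand, stood at 4.25, 2.20 and 7.27 CPM in KO mice and 20.9, 24.4 and 12.1 CPM in WT mice (−1.99, SE 0.40, edgeR adjusted p = 0.0081). Its call was lost without KO1, without both mice with hashtag 2, with a stricter limit on the score and with the score taken from cells thinned to 1000 UMIs, where the log2 fold change was −0.73 (edgeR adjusted p = 0.146). Of 17 immediate-early and Klf factors, Klf6 was called lower at 398 ± 102 against 703 ± 106 CPM (−0.80, lost without KO1 or WT3). Of 10 genes of the BMP response, a signal known to be strongest at the villus tip, 2 were lower: the receptor Bmpr2 at 95.9 ± 12.6 in KO against 201 ± 28.6 CPM in WT mice (−1.06) and the target Id1 at 211 ± 40.4 against 415 ± 55.1 CPM (−0.94).

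Of 18 genes of chylomicron assembly, 4 were lower in KO, against 4.39% of all genes, and none was higher, with a median of −0.24. In 8 of the 18 every KO mouse lay under every WT mouse, against 14.6% of all genes. Mttp, which loads lipid onto Apob, stood at 592, 517 and 638 CPM in KO mice and 1048, 726 and 1098 CPM in WT mice (−0.70, SE 0.15, edgeR adjusted p = 0.0121). The cargo receptor Surf4 (−0.52), the vesicle coat protein Sar1b (−0.54) and the fatty acid ligase Acsl5 (−0.61) were the others. All 4 calls were lost when single mice were left out: each without WT3, Mttp, Surf4 and Acsl5 without KO1, and each without KO2. Abca1, which exports cholesterol, stood at 55.3, 90.9 and 57.4 CPM in KO mice and 209, 180.2 and 277 CPM in WT mice (−1.71, SE 0.20, edgeR adjusted p = 3.14e-04), while Npc1l1, which takes it up, was higher in KO at 759 ± 109 against 534 ± 72.2 CPM (0.54). Both genes separated the mice by genotype, in opposite directions, and the call of Npc1l1 was lost without KO1, KO2, WT1 or WT3.

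Slc5a1, the sodium-glucose carrier SGLT1, was lower at 411 ± 64.0 in KO against 707 ± 93.3 CPM in WT mice (−0.76), the single call among 8 sugar genes. Of 16 peptide and amino acid genes, Slc7a9 (0.40) and Slc7a7 (0.56) were higher. Of 16 brush border genes, Vil1, the actin bundler villin whose promoter drives the Cre, was higher at 942 ± 81.1 against 687 ± 40.2 CPM (0.48), and Baiap2l1, a membrane-bending adaptor, was lower (−0.53). Of 17 keratin and junction genes, Krt20 was lower (−0.46), a call that was lost without KO1, without KO2, without WT2 and without WT3. Of 12 purine genes outside the rule, the ectonucleotidase Entpd8 was higher (0.55). Calls near the threshold rested on single mice here too: Slc7a9 was lost in each of the 6 fits without 1 mouse, Slc7a7 in all but that without KO2, Vil1 and Entpd8 in 4 fits each that included those without KO1 and WT3, and Baiap2l1 without WT2 or any KO mouse.

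Genes of cell death moved singly. Of 17 genes of pyroptosis and necroptosis, Nlrp9b was higher and Zbp1 lower, with a median of 0.10. Zbp1, an interferon-induced sensor of Z-form nucleic acids, stood at 22.0, 35.2 and 24.2 CPM in KO mice and 51.2, 60.9 and 77.2 CPM in WT mice (−1.22, SE 0.22, edgeR adjusted p = 0.00502). Gsdmd, the pore-forming gasdermin D, averaged 748 ± 68.9 CPM in KO and 770.1 ± 78.3 CPM in WT mice (−0.02), and Casp8, a protease of death receptor signalling, 397 ± 24.9 and 424 ± 53.4 CPM (−0.06), and neither was called. Of 15 p53 targets, Cdkn1a, the cell cycle inhibitor p21, was lower at 257, 197 and 239 CPM in KO and 472, 419 and 531 CPM in WT mice (−1.01, SE 0.13, edgeR adjusted p = 5.05e-04).

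Of 10 mucosal defence genes, Nos2, the inducible nitric oxide synthase, was lower at 7.73, 6.599 and 3.23 CPM in KO against 34.0, 28.0 and 66.0 CPM in WT mice (−2.79, SE 0.37, edgeR adjusted p = 5.22e-04). Pigr, which carries IgA to the lumen (−1.96), and Fut2, which fucosylates surface glycans (−1.82), were also lower, and Reg4 was higher (1.91, lost without WT1). Reg4 stood at 203 CPM over the KO library and 79.2 CPM over the WT library, and the part of RNA from other cells in its tip value was not tested. The mice overlapped for Reg4 over all their cells, with KO2 the lowest at 68.2 CPM. None of 13 mitochondrially encoded genes, 6 heat shock genes, 6 proximal genes and 3 ileal genes was called, and of 18 nuclear respiratory genes Cox7a1 was higher (1.13).

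**Figure D5:**
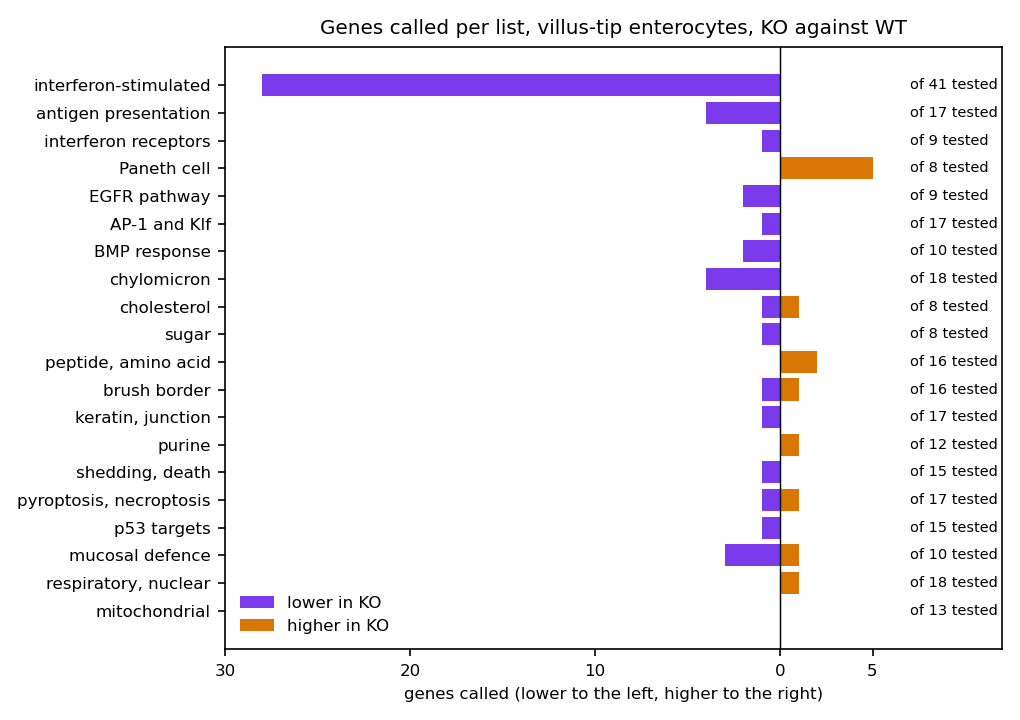
Number of genes called lower (left of 0) and higher (right of 0) in KO than in WT villus-tip enterocytes for 20 gene lists, with the number tested at the right. The interferon-stimulated list has 28 lower of 41 tested and the Paneth cell list 5 higher of 8, while the other 18 lists have at most 4 genes in either direction.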

How the data were processed

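Gene UMI counts came from 2 droplet libraries, 1 per genotype, with a hashtag library each. The deposited counts were made by the authors with Cell Ranger 7.0.1 on mm10, per the submitters' processing notes, which also name Seurat 4.1.0 without a role. The files held 32285 genes and 3 hashtags.

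Barcodes with at least 1000 UMIs, 500 genes and at most 25% mitochondrial UMIs were kept. Mice were assigned with HTODemux (Seurat 5.3.0, quantile 0.99), and cells called doublets or without a hashtag were left out of all tests. UMIs were summed per mouse and zone and tested with edgeR 4.0.16 (quasi-likelihood, TMM, low-count filter, Benjamini-Hochberg, 0.05) in R 4.3.3. The difference between zones used 12 sums with mouse as a term. DESeq2 1.42.0 was an alternative. Levels in tip cells and the other enterocytes are CPM scaled by TMM factors of the 12 sums, and zone ratios add 1 CPM. Levels over whole libraries, in goblet-gated cells and in cells without a hashtag are plain CPM. Genes were named by fixed rules: the 12 lower and 12 higher genes with the smallest p, no overlap and a mean of at least 20 CPM; 5 per direction for the difference between zones; 15 higher and 10 lower along the villus; and list members. Of the 23 genes of the rule, 22 passed the count filter and stayed in the fit and the adjustment. Their tests are not reported and they are left out of the counts of calls. Cells, members and lists were chosen with earlier results of these data known. The depth of 901792 to 2697759 UMIs per mouse sets the precision, and shares of cells carry counting error. Some results are not reported here.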

Additional observations from a re-analysis of the deposited data

How the results depend on the processing

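The 491 calls between KO and WT in villus-tip enterocytes became 762 with no low-count filter and 213 with a mitochondrial limit of 15%; the cause of either was not tested. Leaving out 1 mouse gave 203 to 541. DESeq2 called 379, of which 363 were among the 491. The difference between zones had 0 calls by edgeR, 1 by DESeq2, 13 with no filter and 176 without both mice with hashtag 2, and 0 in each fit without 1 mouse. In villus-tip cells, mice with the same number had correlations of 0.07, −0.03 and 0.08 over 6848 genes. KO and WT mice with unlike numbers had −0.13 to 0.05. All pairs were thus near 0, with 0.07 and 0.08 the highest. The other enterocytes were not examined in this way, and a shared effect of the number there was not tested. In them KO2 and WT2 stood apart together for some genes, such as Dmbt1 at 438 and 241 CPM against 8.94 to 14.7 CPM in the other mice. With the replicate block 530 genes were called in tip cells, 455 of them among the 491. The ratio of the interferon-stimulated sum was 0.529 to 0.624 and its difference between zones 0.23 to 0.60 on the log2 scale, scalings chosen after seeing the data included. Of 82 named genes followed, 54 kept their call in every alternative that tested them, 28 lost it in at least 1, and none changed sign. Few cells per mouse, down to 96, limit genes at low levels.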

Other observations

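Villus-tip cells without a hashtag, 268 in KO and 273 in WT, entered no comparison. Their pooled levels lay in the direction of the mice for all 12 lower and all 12 higher named genes. Rtp4 stood at 2.98 CPM in KO and 42.9 CPM in WT, Phlda1 at 44.7 CPM in KO and 261 CPM in WT, and Mt1 at 631 CPM in KO and 27.8 CPM in WT. The summed interferon-stimulated list stood at 3254 CPM in KO and 5183 CPM in WT. These cells may come from the same mice and shared the same pools, and no test was made.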
